A study of Mus musculus with 16 samples.

Results

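Oxidative phosphorylation was followed here through 91 genes among the 22180 that had a probe set of their own on the array. They were taken by symbol: 42 beginning with Nduf for complex I, 8 Sdh genes for complex II, 7 Uqcr genes for complex III, 17 Cox4 to Cox8 genes for complex IV and 17 Atp5 genes for complex V. Selection by symbol takes in more than subunits: 71 of the 91 encode ordinary subunits, 12 encode assembly factors (8 Ndufaf and 4 Sdhaf genes), 7 encode complex IV isoforms restricted to a few tissues, and Cox7a2l encodes a factor that joins complexes III and IV. For 8 further genes, among them Cox6c, Ndufs6 and Uqcr10, each probe set carried several symbols, so they were not analysed here, and 2 pseudogenes were left out. Where a gene had several probe sets, the brightest on average over all 16 arrays stood for it. No filter on low values was applied, so every one of the 91 was tested, and 85 of them lay above the 40% dimmest genes.

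The cells were CD8 T cells (lineage negative, TCRb+ CD8+) sorted from spleens of female mice, whose strain the labels write as both C56BL/6 and C57BL/6. All mice carried transplanted murine CLL cells from Eµ-TCL1 mice, in which the immunoglobulin enhancer drives the TCL1 oncogene in B cells so that a disease like chronic lymphocytic leukemia develops, and spleens were taken 6 weeks after transplantation. The 4 subsets, each on 4 arrays, were PD-1hi effector cells (CD127low CD44int-hi PD-1hi), PD-1int effector cells (CD127low CD44int-hi PD-1int), memory cells (CD127hi CD44hi) and naive cells (CD127hi CD44low). Every subset thus came from leukemic hosts, and the labels give neither ages nor whether the arrays of a subset came from separate mice, so each p-value reflects no more than the spread among these arrays, which may be technical. Values are log2 expression per probe set, and a difference of 1 is a 2-fold change in signal. A bulk value does not tell fewer cells of a type from less RNA per cell.

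In oxidative phosphorylation, complexes I and II pass electrons from NADH and from succinate to ubiquinone, complex III passes them on to cytochrome c, and complex IV passes them to oxygen. Complexes I, III and IV pump protons across the inner mitochondrial membrane, and complex V, the ATP synthase, uses the gradient to make ATP. Most subunits are encoded in the nucleus and a few of the core ones in mitochondrial DNA. As general background, naive T cells are small resting cells, activated T cells build mitochondrial mass, memory CD8 cells are known for a large respiratory reserve, and exhausted CD8 cells are known for impaired mitochondrial function.

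Markers of T cells were high in every subset: Cd8a averaged 11.5 in PD-1hi, 11.4 in PD-1int, 11.6 in memory and 11.7 in naive cells. Of 9 CD8 T-cell identity genes 4 rose and 2 fell in PD-1hi against naive cells, led by Zap70, a kinase of the T-cell receptor, at 1.11, Cd2, an adhesion receptor, at 0.51 and Cd3e, of the receptor complex, at 0.37, and between PD-1hi and PD-1int cells Zap70 rose by 0.42 and Thy1 differed by -0.53. The centred mean of that list ran from -0.026 to 0.13 in PD-1hi arrays, 0.040 to 0.12 in PD-1int arrays, -0.060 to 0.035 in memory arrays and -0.18 to -0.098 in naive arrays, so naive arrays were lowest without overlap. Of 14 B-cell and CLL-cell markers 1 rose and 3 fell in PD-1hi against naive cells, with mean levels of 6.18 to 6.54 in PD-1hi arrays, 6.28 to 6.61 in PD-1int arrays, 6.60 to 7.01 in memory arrays and 6.52 to 6.84 in naive arrays. Replicate 4 was the highest array of that list in each subset, at 6.54 in PD-1hi, 6.61 in PD-1int, 7.01 in memory and 6.84 in naive cells. Ighm, the heavy chain of IgM, differed by -3.68 ± 0.26 (SE, adjusted p = 2.61e-09) between PD-1hi and naive cells, Cd79b, of the B-cell receptor, by -0.97 ± 0.13 (SE, adjusted p = 9.23e-06), and Cd22 by 0.84 ± 0.12 (SE, adjusted p = 2.38e-05). Cd22 differed by -0.90 between PD-1hi and PD-1int cells. Cd79a differed by -0.17 and Ms4a1 by 0.053 between PD-1hi and naive cells, and neither passed. In PD-1hi against naive cells, of 12 myeloid markers 3 rose and 1 fell, among them Cd68 at 3.05, Cst3 at 0.57 and Ctss at -0.51, of 7 erythroid and platelet markers only Ppbp rose, at 1.06, and of 10 natural killer and CD4 T-cell markers 2 rose, Ctla4 at 2.86 and Zbtb7b at 0.28. Ctla4 was also 0.97 higher in PD-1hi than in PD-1int cells. Mean levels of the myeloid list ran from 7.15 to 7.35 in PD-1hi arrays and from 6.66 to 6.86 in naive arrays. Those of the erythroid list ran from 6.61 to 6.98 in PD-1hi arrays and from 6.34 to 6.67 in naive arrays, and those of the natural killer and CD4 list from 6.43 to 6.51 in PD-1hi arrays and from 6.05 to 6.21 in naive arrays. The part of such cells in the members' differences was not tested.

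Against naive cells, more of the nuclear genes of the respiratory chain and ATP synthase were higher than lower in PD-1hi, PD-1int and memory cells alike, and no member changed 2-fold in those comparisons. In PD-1hi cells 39 of 91 rose and 8 fell, where 13.4% of all genes rose and 13.7% fell, and the median difference was 0.19 against -0.014 over all genes. In PD-1int cells 33 rose and 4 fell, beside 11.9% and 10.8% of all genes, with a median of 0.14 against -0.030; without naive replicate 1 the fit called 2 lower. In memory cells 31 rose, beside 6.70% of all genes, with a median of 0.20 against -0.016. None fell in memory cells by limma's adjusted p (5.02% of all genes did), 1 member was lower at an unadjusted p under 0.05, and 1 passed in the fit without naive replicate 2. These comparisons share the naive arrays. The members are brighter than most genes (median of their means 9.50 against 6.61), and bright genes were called more often: without the 40% dimmest genes, 22.1% rose and 22.1% fell in PD-1hi cells and 12.4% rose in memory cells.

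Averaged over the 91 genes, each centred on its own mean over the 16 arrays, the PD-1hi arrays lay between 0.0023 and 0.095, the PD-1int arrays between 0.012 and 0.039, the memory arrays between 0.027 and 0.10, and the naive arrays between -0.20 and -0.042. All naive arrays thus lay below all others. The same held within complexes I, III, IV and V but not within complex II, where PD-1hi arrays ran from -0.10 to 0.037 and naive arrays from -0.20 to 0.068. Among naive arrays replicate 4 was the highest in all 5 complexes, as the plot by complex and array shows. Complexes IV and I are given as examples, and whether their order of subsets differed was not tested. In complex IV the mean was 0.10 ± 0.041 in PD-1hi arrays, 0.058 ± 0.030 in PD-1int arrays, 0.0039 ± 0.050 in memory arrays and -0.16 ± 0.068 in naive arrays (SD, n = 4 each). In complex I it was 0.020 ± 0.036 in PD-1hi arrays, 0.016 ± 0.0064 in PD-1int arrays, 0.097 ± 0.047 in memory arrays and -0.13 ± 0.077 in naive arrays (SD, n = 4 each). The 8 assembly factors within complex I averaged -0.094 in PD-1hi and 0.20 in memory arrays. Its 7 genes of the NADH-oxidising module averaged 0.026 and 0.082, and the 4 of the quinone-reducing module 0.024 and 0.071. The remaining 23 averaged 0.057 and 0.071. Over the 71 ordinary subunits of all complexes the means were 0.062 and 0.061. For complex I the PD-1hi and PD-1int arrays overlapped, and for complex IV the same neighbours overlapped too. Memory and PD-1hi arrays also overlapped in both. In complex I the highest PD-1hi array (0.062) lay above the lowest memory array (0.044), while all PD-1int arrays lay below it. In complex IV the highest memory array (0.062) lay above the lowest PD-1hi array (0.061) and the lowest PD-1int array (0.031).

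**Figure D1:**
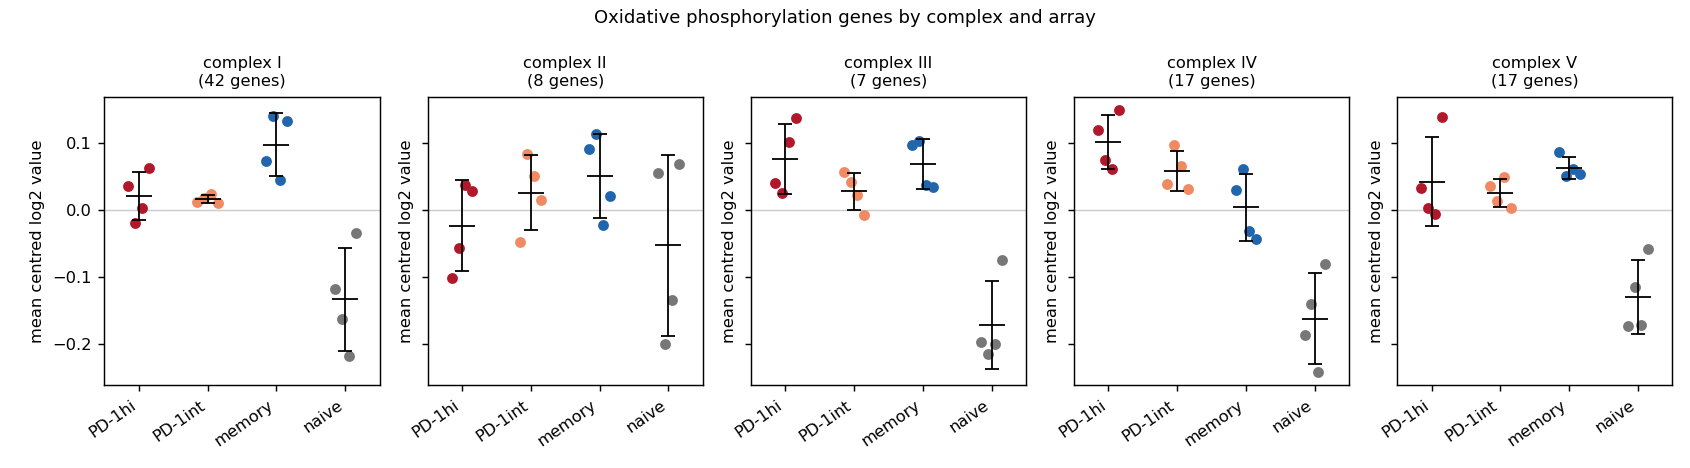
Mean log2 value of the genes of each complex in the 16 arrays, each gene centred on its mean over all arrays. Points are arrays, and bars give the mean and SD of the 4 arrays of a subset. The naive arrays lie lowest in complexes I, III, IV and V and overlap the other subsets in complex II.

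Counts of members that rose or fell against naive cells are given by complex. In PD-1hi cells against naive cells 17 of 42 complex I genes rose and 4 fell, 9 of 17 rose and 1 fell in complex IV, and 9 of 17 rose and 1 fell in complex V. Of the 8 complex II genes 2 rose and 2 fell, and of the 7 complex III genes 2 rose. In PD-1int cells the counts were 14 higher and 1 lower in complex I, 2 and 2 in complex II, 2 higher in complex III, 7 and 1 in complex IV, and 8 higher in complex V. Memory cells had 15 higher in complex I, 1 in complex II, 2 in complex III, 5 in complex IV and 8 in complex V. Whether complexes differed in their share was not tested.

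**Figure D2:**
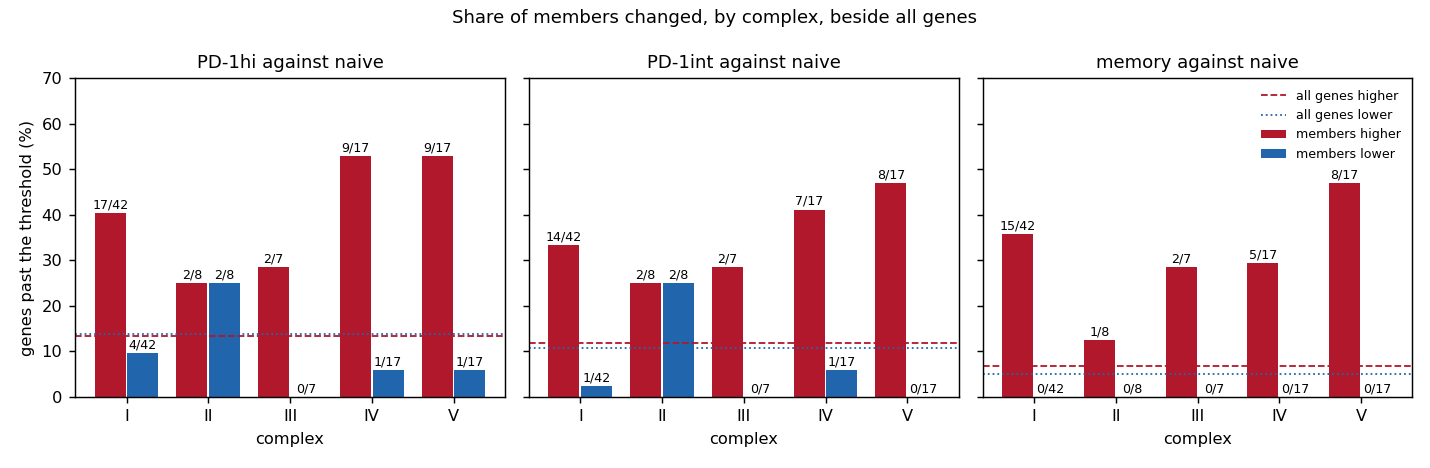
Share of the genes of each complex (percent) higher or lower than in naive cells at an adjusted p under 0.05, for PD-1hi, PD-1int and memory cells, with the counts above the bars. Broken lines give the shares over all 22180 genes, 13.4% higher and 13.7% lower for PD-1hi cells. The bars for higher genes stand above the line in every complex, and in complex II of the PD-1hi and PD-1int cells the bars for higher and lower genes are equal.

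Mitosis genes moved with the subsets as well. All 29 were higher in PD-1hi than in naive cells, among them Mki67, Kif11 and Prc1, with a median of 3.49, and 27 of 29 in memory than in naive cells. Between PD-1hi and PD-1int cells 9 were higher, among them Ttk at 1.10, Kif20a at 0.89 and Cenpf at 0.87. The shares of all genes that were higher in these 3 comparisons were 13.4%, 6.70% and 1.37%. Their centred mean was 1.30 to 1.72 in PD-1hi arrays, 0.40 to 0.89 in PD-1int arrays, -0.95 to 0.19 in memory arrays and -1.91 to -1.71 in naive arrays. Memory replicates 1 and 4 lay at 0.19 and 0.033, and replicates 2 and 3 at -0.88 and -0.95. A fit without memory replicates 1 and 4, chosen after seeing the data, called 13 members higher in memory than in naive cells in place of 31, and a fit without naive replicate 3 called 19. In PD-1hi against memory cells, the fit without memory replicates 1 and 4 called 5 higher and 7 lower. The part of mitosis in the members' differences was not tested.

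In complex I the largest rise was in Ndufb7, an accessory subunit of the membrane arm. Its log2 values were 10.84, 10.91, 10.98 and 10.99 in PD-1hi arrays, 10.87, 10.79, 10.80 and 10.82 in PD-1int arrays, 10.66, 10.62, 10.43 and 10.55 in memory arrays, and 9.99, 9.96, 9.88 and 10.26 in naive arrays. All PD-1hi arrays lay above all memory arrays, and all memory arrays above all naive ones. The difference between PD-1hi and naive cells was 0.91 ± 0.083 (SE, adjusted p = 9.59e-08), and between PD-1hi and memory cells 0.37 ± 0.083 (SE, adjusted p = 0.00279). Next came Ndufb8, a further membrane-arm subunit, at 0.66, and Ndufa1, an X-linked accessory subunit, at 0.60 (adjusted p = 1.28e-06 and 1.36e-06 in PD-1hi against naive cells). Ndufb8 had values of 9.25, 9.28, 9.37 and 9.43 in PD-1hi arrays, 9.05, 9.20, 9.10 and 9.12 in PD-1int arrays, 8.88, 8.88, 8.86 and 9.04 in memory arrays, and 8.66, 8.58, 8.61 and 8.81 in naive arrays. PD-1hi arrays were the highest and naive arrays the lowest without overlap between PD-1hi and any other subset. Ndufa4l2, a paralog of Ndufa4 and one of the 40% dimmest genes, differed by 0.061 between PD-1hi and naive cells and did not pass. Ndufa4, named for complex I but now counted with complex IV, was 0.52 ± 0.08 (SE, adjusted p = 4.69e-05) higher in PD-1hi cells, 0.48 higher in PD-1int cells and 0.36 higher in memory cells, each past the threshold.

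Of the core subunits of complex I, only some rose. Ndufs8, which carries iron-sulphur clusters, rose by 0.48 in PD-1hi cells, 0.47 in PD-1int cells and 0.40 in memory cells, against naive cells (adjusted p = 0.000119, 0.000192 and 0.00218). Ndufv2 was 0.23 ± 0.076 (SE, adjusted p = 0.0292) higher in PD-1hi cells, a call lost in 4 of 8 fits that left out 1 array. Ndufs1, the largest subunit, differed by -0.033 ± 0.11 (SE, adjusted p = 0.891), and Ndufv1, which binds NADH and flavin, by -0.16 ± 0.10 (SE, adjusted p = 0.325), neither past the threshold. The core subunits Ndufs7 and Ndufs3 differed by -0.079 ± 0.097 (SE, adjusted p = 0.64) and -0.11 ± 0.08 (SE, adjusted p = 0.401) and did not pass either; Ndufs3 passed as lower in PD-1hi than in memory cells (adjusted p = 0.0381), a call lost in 4 of 8 fits that left out 1 array. Set against memory cells, PD-1hi cells had less Ndufv1, -0.30 ± 0.10 (SE, adjusted p = 0.0444), although that call was lost in 7 of 8 such fits. Ndufab1, the mitochondrial acyl carrier protein, differed by -0.039 ± 0.10 (SE, adjusted p = 0.847). The accessory subunits Ndufa10 and Ndufa6 fell in PD-1hi cells against naive cells, by 0.25 and 0.27 on the log2 scale. The Ndufa6 call was lost in 2 of 8 fits that left out 1 array, and both calls were lost in a fit of only the 8 arrays compared. Ndufa10 had values of 11.04, 10.94, 10.90 and 10.998 in PD-1hi arrays, 11.004, 11.02, 11.02 and 10.87 in PD-1int arrays, 11.22, 11.28, 11.34 and 11.35 in memory arrays, and 11.31, 11.15, 11.11 and 11.30 in naive arrays. The PD-1hi arrays all lay below the naive ones, and the memory and naive arrays overlapped.

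The complex I assembly factors, which help build the complex and are not part of it, went in different directions: 3 of 8 rose and 2 fell in PD-1hi against naive cells. The largest fall among all members was in Ndufaf6, needed for an early step of the membrane arm. Its values were 7.29, 7.12, 6.71 and 6.34 in PD-1hi arrays, 7.24, 7.48, 7.30 and 7.40 in PD-1int arrays, 8.24, 8.16, 8.21 and 8.60 in memory arrays, and 7.95, 7.71, 7.56 and 7.95 in naive arrays. PD-1hi arrays were all below naive arrays, and memory arrays all above them. The difference was -0.93 ± 0.16 (SE, adjusted p = 0.000206) between PD-1hi and naive cells and -1.44 ± 0.16 (SE, adjusted p = 2.44e-06) between PD-1hi and memory cells. Memory cells were 0.51 ± 0.16 (SE, adjusted p = 0.0515) above naive cells, short of the threshold. Ndufaf4 acts together with Ndufaf3 in an early step of assembly. It had values of 8.62, 8.10, 9.04 and 8.87 in PD-1hi arrays, 9.08, 8.92, 9.04 and 8.88 in PD-1int arrays, 9.66, 9.73, 9.66 and 9.71 in memory arrays, and 9.26, 9.18, 9.01 and 9.22 in naive arrays. Again memory cells stood highest and PD-1hi cells lowest, with PD-1hi and naive arrays overlapping at 1 PD-1hi array. Ndufaf4 differed by -0.51 ± 0.14 (SE, adjusted p = 0.00939) between PD-1hi and naive cells, by -1.03 ± 0.14 (SE, adjusted p = 1.92e-05) between PD-1hi and memory cells, and by 0.52 ± 0.14 (SE, adjusted p = 0.0191) between memory and naive cells. The last of these was lost without naive replicate 3 (adjusted p = 0.0664), and the first in a fit of only the 8 arrays compared.

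Its partner Ndufaf3 went the other way. Ndufaf3 values were 8.03, 8.29, 8.33 and 8.26 in PD-1hi arrays, 7.97, 8.10, 8.11 and 8.13 in PD-1int arrays, 7.52, 8.02, 7.504 and 7.94 in memory arrays, and 7.51, 7.77, 7.68 and 7.94 in naive arrays. PD-1hi arrays lay above all memory and naive arrays, at 0.50 ± 0.12 (SE, adjusted p = 0.00333) over naive cells and 0.48 ± 0.12 (SE, adjusted p = 0.00596) over memory cells. Ndufaf7, a methyltransferase that modifies a core subunit, rose by 0.35 ± 0.092 (SE, adjusted p = 0.00761) in PD-1hi against naive cells, and Ndufaf2, which acts late in assembly, by 0.44 ± 0.14 (SE, adjusted p = 0.0243). The Ndufaf2 arrays overlapped, and its call was lost in 4 of 8 fits that left out 1 array. Ndufaf1, Ndufaf5 and Ndufaf8 differed by 0.21, -0.14 and 0.0073 in the same comparison and did not pass. Ndufaf5 was lower in PD-1hi than in memory cells at -0.34 ± 0.10 (SE, adjusted p = 0.0193), with overlapping arrays and a call lost in 4 of 8 fits that left out 1 array.

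**Figure D3:**
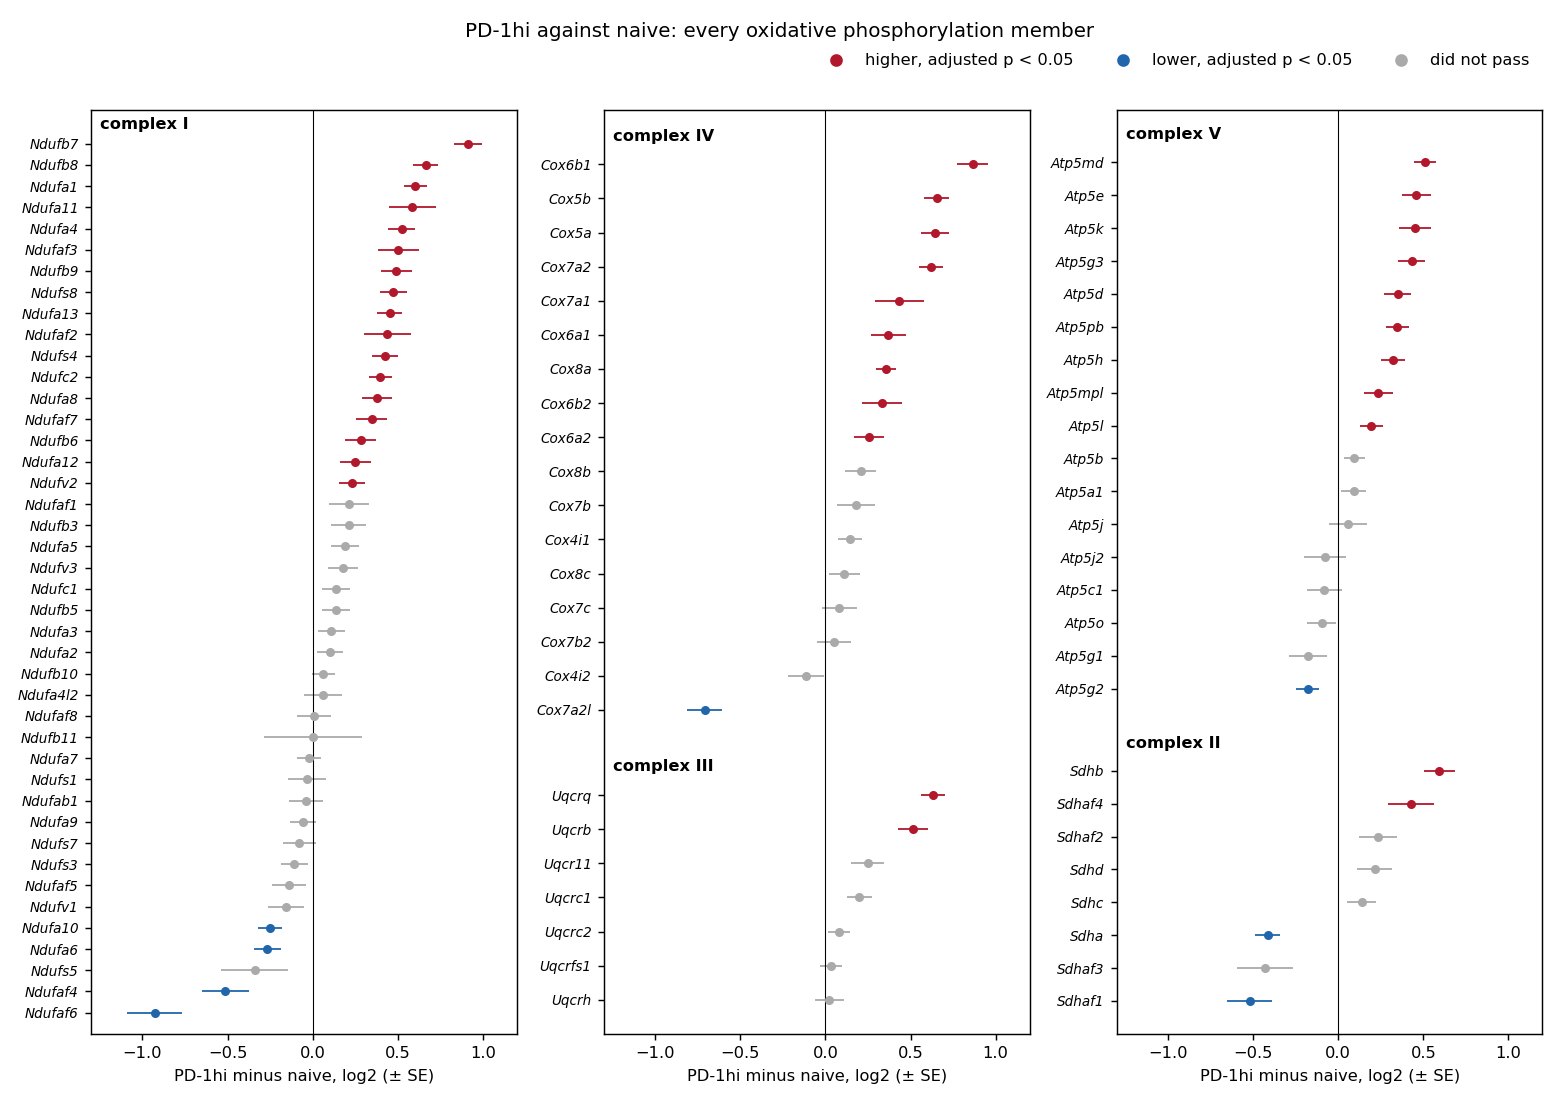
Difference in log2 value between PD-1hi and naive cells for each of the 91 genes, ordered within its complex, with standard errors from limma. Colours mark genes higher, lower or not past an adjusted p of 0.05. Most points lie right of 0, from Ndufb7 at 0.91 downwards, and the largest falls are Ndufaf6 at -0.93 and Cox7a2l at -0.71.

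Complex II, succinate dehydrogenase, is also an enzyme of the tricarboxylic acid cycle, and its 2 catalytic subunits moved apart. Sdhb, the iron-sulphur subunit, had values of 10.54, 10.58, 10.54 and 10.59 in PD-1hi arrays, 10.40, 10.61, 10.62 and 10.67 in PD-1int arrays, 10.38, 10.39, 10.19 and 10.28 in memory arrays, and 9.99, 9.92, 9.77 and 10.21 in naive arrays. The PD-1hi and PD-1int arrays all lay above the naive arrays, by 0.59 ± 0.09 (SE, adjusted p = 4.33e-05) in PD-1hi cells. Sdha, the flavoprotein that oxidises succinate, had values of 10.79, 10.74, 10.68 and 10.70 in PD-1hi arrays, 10.78, 10.78, 10.82 and 10.81 in PD-1int arrays, 11.03, 11.14, 10.92 and 11.04 in memory arrays, and 11.30, 11.16, 11.04 and 11.08 in naive arrays. The order was turned round, with all PD-1hi and PD-1int arrays below all memory and naive arrays. Sdha fell by 0.42 on the log2 scale in PD-1hi against naive cells (SE 0.072, adjusted p = 0.000191), and PD-1hi and memory cells differed by -0.30 ± 0.072 (SE, adjusted p = 0.00412). The membrane anchors Sdhc and Sdhd differed by 0.14 and 0.21 between PD-1hi and naive cells, short of the threshold.

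The assembly factors of complex II divided as well. Sdhaf4, which binds flavinated Sdha, was 0.43 ± 0.14 (SE, adjusted p = 0.0245) higher in PD-1hi cells and 0.54 ± 0.14 (SE, adjusted p = 0.00591) higher in PD-1int cells than in naive cells; the PD-1hi call was lost in 4 of 8 fits that left out 1 array. Sdhaf1, which serves the iron-sulphur clusters of Sdhb, had values of 9.18, 9.27, 9.65 and 9.19 in PD-1hi arrays, against 9.89, 9.41, 9.98 and 10.08 in naive arrays. Naive replicates 1, 3 and 4 lay above all PD-1hi arrays and naive replicate 2 lay within them, and the difference was -0.52 ± 0.13 (SE, adjusted p = 0.00538). A dimmer probe set of Sdhaf1 differed by -0.19, short of the threshold (adjusted p = 0.364). Sdhaf3, with a role like that of Sdhaf1, differed by -0.55 ± 0.16 (SE, adjusted p = 0.0191) between PD-1hi and memory cells, a call lost in 3 of 8 fits that left out 1 array. Sdhaf2, which adds the flavin to Sdha, differed by 0.23 between PD-1hi and naive cells and did not pass.

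Promoters of pairs with differences of opposite sign are shown beside these values: Sdhb and Sdha of complex II, and Atp5g3 and Atp5g2 of complex V. Atp5g3 and Atp5g2 encode the same mature c-ring protein and are described further on. The Atp5g2 fall against naive cells was lost in 7 of 8 fits that left out 1 array. Each promoter runs from 250 bases before to 50 bases after the gene's start, from RefSeq on build GRCm38.p6, 5′ to 3′ on the gene's strand. They lie at chr4:140961021-140961320 (plus strand), chr13:74350191-74350490 (minus), chr2:73911277-73911576 (minus) and chr15:102670998-102671297 (minus). Capitals mark matches to the motif of nuclear respiratory factor 1 (NRF1), which is GCGC, 2 bases of any kind and GCGC again, and, in Atp5g3, a match on the other strand to TCAAGGTCA, a site of ERR alpha. Sdhb was chosen by rule and the other 3 after their values were seen.
Sdhb: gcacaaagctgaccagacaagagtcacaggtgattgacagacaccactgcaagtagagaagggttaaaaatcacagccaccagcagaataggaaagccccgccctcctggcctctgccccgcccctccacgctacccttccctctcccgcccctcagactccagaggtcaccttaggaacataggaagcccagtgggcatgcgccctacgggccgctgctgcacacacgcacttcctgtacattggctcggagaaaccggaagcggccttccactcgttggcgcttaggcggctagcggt
Sdha: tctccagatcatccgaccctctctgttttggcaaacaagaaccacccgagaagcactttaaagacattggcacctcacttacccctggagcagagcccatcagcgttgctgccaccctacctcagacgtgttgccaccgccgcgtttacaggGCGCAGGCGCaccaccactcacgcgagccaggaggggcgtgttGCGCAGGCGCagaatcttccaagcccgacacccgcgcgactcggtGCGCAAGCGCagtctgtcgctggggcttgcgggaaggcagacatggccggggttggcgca
Atp5g3: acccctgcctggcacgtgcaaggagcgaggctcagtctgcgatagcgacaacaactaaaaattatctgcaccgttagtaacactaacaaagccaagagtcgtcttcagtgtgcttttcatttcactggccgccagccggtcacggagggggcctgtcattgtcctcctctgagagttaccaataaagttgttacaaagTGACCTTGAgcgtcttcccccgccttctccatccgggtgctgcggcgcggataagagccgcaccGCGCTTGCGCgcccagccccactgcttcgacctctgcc
Atp5g2: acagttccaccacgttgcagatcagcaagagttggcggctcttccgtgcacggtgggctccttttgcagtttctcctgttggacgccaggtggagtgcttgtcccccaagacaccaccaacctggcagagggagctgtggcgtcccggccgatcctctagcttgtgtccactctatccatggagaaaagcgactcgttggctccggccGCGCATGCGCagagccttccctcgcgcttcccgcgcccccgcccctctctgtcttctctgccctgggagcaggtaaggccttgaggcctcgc
Sdha held 3 matches to the NRF1 motif, Atp5g3 and Atp5g2 held 1 each, and Sdhb held no match to any motif searched. The promoters of Ndufb7, Cox6b1 and Atp5md, the members of their complexes with the smallest adjusted p between PD-1hi and naive cells, held none either.

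The table of promoters had an entry for 76 of the 91 members, with 81 promoters. Both strands were searched for the NRF1 motif, CCGGAAGT (GABPA and other ETS factors), AAGATGGCG (YY1) and TCAAGGTCA (ERR alpha), and motifs that overlapped in part were each counted. The NRF1 motif was found in 27.2% of the members' promoters, against 6.23% of all 32851 promoters and 8.57% of those of protein-coding genes. It was in 8 of 35 promoters of members that rose in PD-1hi against naive cells, 4 of 7 of those that fell (Atp5g2 among them) and 10 of 39 of those that did not pass. AAGATGGCG was in 8.64% of the members' promoters and 1.40% of all promoters, CCGGAAGT in 6.17% of the members' and 3.89% of all, and TCAAGGTCA in 2.47% of the members' and 0.423% of all. A match is a stretch of letters and not a bound site.

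Of the 7 complex III genes, Uqcrq and Uqcrb rose in PD-1hi against naive cells and the core subunits did not pass. Uqcrq, a small subunit beside the ubiquinone-binding part, had values of 10.04, 9.99, 10.09 and 10.23 in PD-1hi arrays, 9.98, 9.99, 9.98 and 9.89 in PD-1int arrays, 10.01, 9.93, 10.07 and 10.01 in memory arrays, and 9.35, 9.56, 9.44 and 9.47 in naive arrays. Naive arrays lay lowest, PD-1hi arrays lay just above PD-1int arrays, and memory arrays overlapped both. Uqcrq was 0.63 ± 0.071 (SE, adjusted p = 1.42e-06) higher in PD-1hi cells and 0.55 ± 0.071 (SE, adjusted p = 3.25e-05) higher in memory cells than in naive cells, and in memory cells that was the largest rise of any member. Uqcrb, which contacts ubiquinone, was 0.52 ± 0.09 (SE, adjusted p = 0.000209) higher in PD-1hi cells and 0.33 ± 0.09 (SE, adjusted p = 0.0113) higher in PD-1int cells. The core subunits Uqcrc1 and Uqcrc2 differed by 0.20 and 0.079 between PD-1hi and naive cells, and Uqcrfs1, the Rieske iron-sulphur protein, by 0.033. Uqcrc1 passed in memory against naive cells at 0.23 ± 0.074 (SE, adjusted p = 0.048), a call lost in 5 of 8 fits that left out 1 array.

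Of the 9 ubiquitous nuclear subunits of complex IV, 6 rose in PD-1hi against naive cells. Cox6b1, which lies on the outer face where the monomers of the enzyme meet, had values of 10.52, 10.28, 10.38 and 10.69 in PD-1hi arrays, 10.33, 10.37, 10.34 and 10.21 in PD-1int arrays, 10.19, 10.12, 10.10 and 10.06 in memory arrays, and 9.63, 9.48, 9.51 and 9.79 in naive arrays. Naive arrays were lowest and memory arrays next, with no overlap between them or with PD-1hi and PD-1int arrays, which overlapped each other. The difference was 0.87 ± 0.091 (SE, adjusted p = 6.3e-07) in PD-1hi minus naive cells and 0.35 ± 0.091 (SE, adjusted p = 0.00801) in PD-1hi minus memory cells. Cox5a and Cox5b, structural subunits, were 0.64 and 0.65 higher in PD-1hi than in naive cells. A dimmer probe set of Cox5b moved the same way, by 0.86. Cox7a2, the general isoform of subunit 7a, had values of 12.54, 12.37, 12.38 and 12.52 in PD-1hi arrays, 12.22, 12.31, 12.24 and 12.20 in PD-1int arrays, 12.07, 12.14, 12.03 and 12.10 in memory arrays, and 11.82, 11.86, 11.72 and 11.93 in naive arrays. PD-1hi arrays were above all other arrays, by 0.37 ± 0.07 (SE, adjusted p = 0.000602) over memory cells. Cox4i1, the largest nuclear subunit, differed by 0.15 between PD-1hi and naive cells and did not pass, whereas Cox8a and Cox6a1 rose by 0.36 and 0.37.

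Among the 7 isoforms known from muscle, testis or lung, Cox7b2, Cox8b and Cox8c belonged to the 40% dimmest genes, and no detection calls tell whether any of the 7 was expressed. Cox7a1, the heart and muscle isoform of subunit 7a, had values of 7.62, 7.01, 7.20 and 7.32 in PD-1hi arrays, 7.13, 7.30, 7.07 and 7.08 in PD-1int arrays, 6.80, 7.08, 6.58 and 6.61 in memory arrays, and 7.09, 6.80, 6.50 and 7.04 in naive arrays. The arrays overlapped, and the differences were 0.43 ± 0.14 (SE, adjusted p = 0.0315) in PD-1hi minus naive cells and 0.52 ± 0.14 (SE, adjusted p = 0.0124) in PD-1hi minus memory cells. The first was lost in 4 of 8 fits that left out 1 array and the second in 1 of 8. Cox6b2, a testis isoform, and Cox6a2, a muscle isoform, were 0.33 ± 0.12 (SE, adjusted p = 0.044) and 0.25 ± 0.089 (SE, adjusted p = 0.0418) higher in PD-1hi than in naive cells, and each was lost in 6 of 8 such fits. Cox4i2, an isoform best known from lung, differed by -0.11 and did not pass. Cox7b had a brighter probe set that differed by 0.18 without passing and a dimmer one that fell by 0.52 on the log2 scale (adjusted p = 0.0403).

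Cox7a2l stood apart within complex IV. It encodes the supercomplex factor SCAF1, and C57BL/6 mice are known to carry a shortened form of it. Cox7a2l values were 8.84, 9.10, 9.33 and 9.11 in PD-1hi arrays, 9.45, 9.41, 9.45 and 9.60 in PD-1int arrays, 9.78, 9.84, 9.77 and 9.77 in memory arrays, and 9.93, 9.995, 9.59 and 9.70 in naive arrays. The PD-1hi arrays all lay below all arrays of the other subsets, the PD-1int arrays came next, with 1 of them just above the lowest naive array, and memory and naive arrays overlapped at the top. The difference was -0.71 ± 0.10 (SE, adjusted p = 2.39e-05) in PD-1hi minus naive cells, -0.70 ± 0.10 (SE, adjusted p = 4.38e-05) in PD-1hi minus memory cells and -0.33 ± 0.10 (SE, adjusted p = 0.0257) in PD-1int minus naive cells, the last lost in 5 of 8 fits that left out 1 array. Between PD-1hi and PD-1int cells it was -0.38 ± 0.10 (SE, adjusted p = 0.0468), a call lost in 7 of 8 fits that left out 1 array and under 5 of 8 other settings (adjusted p up to 0.154).

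**Figure D4:**
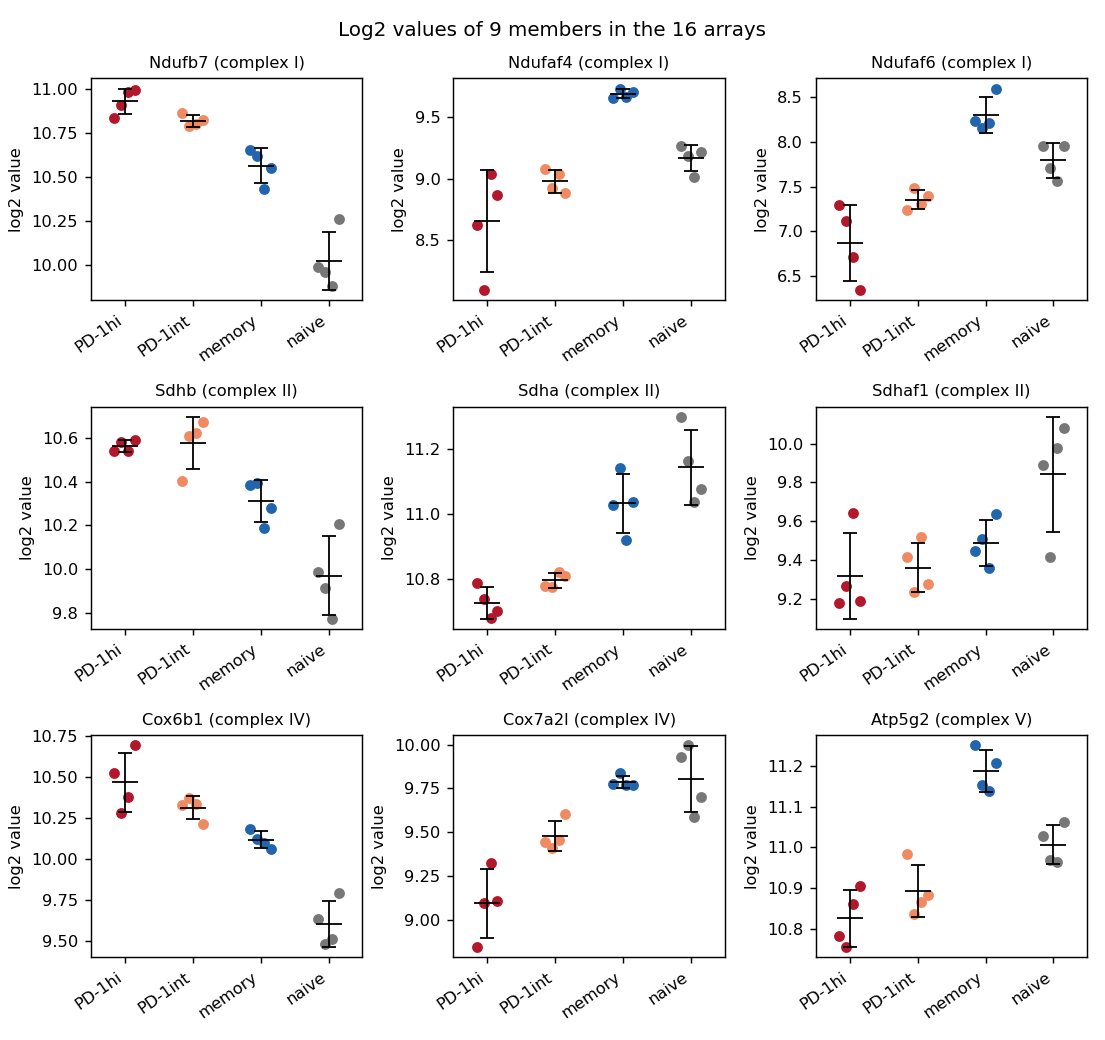
Log2 values of 9 members in the 16 arrays, with the mean and SD of the 4 arrays of each subset. Ndufb7, Sdhb and Cox6b1 are on average lowest in naive arrays, Sdha, Sdhaf1 and Cox7a2l are on average lower in PD-1hi than in naive arrays, and Ndufaf4, Ndufaf6 and Atp5g2 are highest in memory arrays. Axes differ between panels and do not start at 0, and levels of different probe sets are not comparable.

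In complex V, 6 of 9 stalk and membrane subunits rose in PD-1hi against naive cells, and the catalytic subunits did not pass. Atp5md, a small membrane protein that helps ATP synthase form dimers, had values of 13.11, 13.01, 13.05 and 13.21 in PD-1hi arrays, 12.96, 12.96, 13.02 and 12.90 in PD-1int arrays, 12.92, 12.90, 12.89 and 12.90 in memory arrays, and 12.55, 12.55, 12.60 and 12.64 in naive arrays. Naive arrays lay lowest without overlap, and PD-1hi cells were 0.51 ± 0.065 (SE, adjusted p = 5.61e-06) above naive cells. Atp5k and Atp5l, further membrane subunits at the dimer interface, were 0.45 and 0.19 higher, and Atp5pb, of the peripheral stalk, 0.35 higher. The Atp5l call was lost in 7 of 8 fits that left out 1 array. Atp5mpl, a small protein of the membrane part, was 0.24 higher in PD-1hi, 0.28 in PD-1int and 0.42 in memory cells than in naive cells, with calls lost in 5, 3 and 0 of 8 such fits. The alpha and beta subunits of the catalytic head, Atp5a1 and Atp5b, differed by 0.089 ± 0.073 (SE, adjusted p = 0.451) and 0.095 ± 0.064 (SE, adjusted p = 0.338). The small subunits Atp5e and Atp5d of the central stalk were 0.46 and 0.35 higher, but their dimmer probe sets differed by 0.15 and 0.030 and did not pass. For Atp5h, of the peripheral stalk, the brighter probe set rose by 0.32, the dimmer one differed by -0.26, and the mean of both did not pass (adjusted p = 0.868).

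Of the 3 genes for the c-ring protein, Atp5g3 rose against naive cells in PD-1hi, PD-1int and memory cells. Atp5g3 had values of 9.84, 9.56, 9.58 and 9.76 in PD-1hi arrays, 9.52, 9.52, 9.54 and 9.52 in PD-1int arrays, 9.47, 9.51, 9.58 and 9.58 in memory arrays, and 9.07, 9.31, 9.35 and 9.28 in naive arrays. Naive arrays lay lowest, and PD-1hi cells were 0.43 ± 0.08 (SE, adjusted p = 0.000348) above them. PD-1int and memory cells were 0.27 and 0.28 above them, with calls lost in 1 and 3 of 8 fits that left out 1 array. Atp5g2 had values of 10.78, 10.75, 10.86 and 10.90 in PD-1hi arrays, 10.98, 10.84, 10.87 and 10.88 in PD-1int arrays, 11.25, 11.15, 11.14 and 11.21 in memory arrays, and 11.03, 10.97, 10.96 and 11.06 in naive arrays. Memory arrays were highest without overlap, and PD-1hi cells differed by -0.36 ± 0.066 (SE, adjusted p = 0.000384) from memory cells and by -0.18 ± 0.066 (SE, adjusted p = 0.0498) from naive cells. The second of these was lost in 7 of 8 fits that left out 1 array (adjusted p up to 0.129) and under 5 of 8 other settings. A dimmer probe set of Atp5g2 differed by -0.16 between PD-1hi and naive cells and did not pass (adjusted p = 0.0983). Between PD-1hi and memory cells it differed by -0.35 and passed. Atp5g1 differed by -0.18 ± 0.11 (SE, adjusted p = 0.281) between PD-1hi and naive cells.

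Between the effector subsets few members differed. Against PD-1int cells, PD-1hi cells had none higher and 1 lower by limma's adjusted p, beside 1.37% of all genes higher and 1.94% lower, and that member was Cox7a2l. At an unadjusted p under 0.05, 4 were higher and 5 lower. The members that did not pass differed by -0.49 (Ndufaf6) to 0.21 (Ndufb8), with a median standard error of 0.089, so a small change in a single gene would not have been detected.

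Against memory cells, PD-1hi cells had 9 members higher and 13 lower, beside 10.8% and 11.1% of all genes, so neither share stood far from that of all genes. The fit without memory replicate 2 called 8 lower. Their median difference was -0.018, against 0.013 over all genes. The higher ones were 4 of complex I (Ndufa11, Ndufaf3, Ndufb8 and Ndufb7), 4 of complex IV (Cox7a1, Cox7a2, Cox6b1 and Cox5b) and Atp5md, whose call was lost in 6 of 8 fits that left out 1 array and under 3 of 9 other settings (adjusted p up to 0.132). Of the lower ones 9 belonged to complex I, 2 to complex II (Sdha and Sdhaf3), and 1 each to complexes IV and V (Cox7a2l and Atp5g2). Ndufaf6 and Ndufaf4 were the only members past 2-fold in any of the 6 comparisons, at -1.44 and -1.03. PD-1int cells had 1 member higher than memory cells, Ndufb7 at 0.26 ± 0.083 (SE, adjusted p = 0.0435), and 8 lower, beside 8.49% and 7.66% of all genes, the share of lower members being close to that of all genes. The Ndufb7 call was lost in 7 of 8 fits that left out 1 array, and the 8 fits called 4 to 6 members lower. Of the 8 lower, Ndufaf6 at -0.95 ± 0.16 (SE, adjusted p = 0.000413) and Ndufaf4 at -0.71 ± 0.14 (SE, adjusted p = 0.00141) were the largest. In all, 58 members passed in at least 1 of the 6 comparisons and 33 in none.

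Of 10 subunits encoded in mitochondrial DNA, 6 fell in PD-1hi against naive cells, with a median of -0.24 against -0.014 over all genes. Of all genes 13.7% fell, and 22.1% without the 40% dimmest genes. ND5 and ND2, membrane-arm core subunits of complex I, differed by -0.47 ± 0.072 (SE, adjusted p = 5.1e-05) and -0.48 ± 0.10 (SE, adjusted p = 0.00133). CYTB, the core of complex III, differed by -0.27 ± 0.078 (SE, adjusted p = 0.0131). Under quantile normalization 3 of 10 fell. In PD-1int cells 3 fell (ND2, ND5 and CYTB), and 5 did without the 40% dimmest genes. The shares of genes that fell there were 10.8% over all and 17.3% without the dimmest. In memory cells the 10 differences from naive cells ran from -0.31 to 0.22, with adjusted p of 0.113 or more. Averaged over the 10 genes and centred, arrays lay between -0.16 and -0.064 in PD-1hi cells, -0.31 and -0.018 in PD-1int cells, 0.087 and 0.18 in memory cells, and 0.027 and 0.20 in naive cells, so both effector subsets were below memory and naive cells without overlap. ND5 averaged 12.6 in PD-1hi cells and 13.0 in naive cells, on a scale whose highest value was 14.1.

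**Figure D5:**
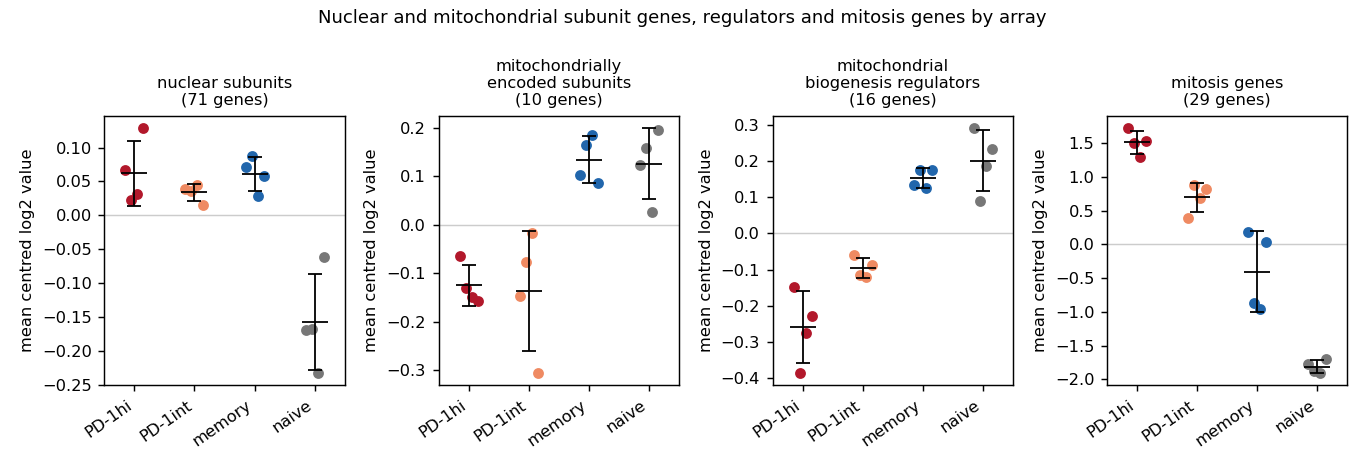
Mean centred log2 value in the 16 arrays of the 71 nuclear subunit genes, the 10 mitochondrially encoded subunit genes, 16 regulators of mitochondrial biogenesis and 29 mitosis genes, with the mean and SD of the 4 arrays of each subset. Nuclear subunits are lowest in naive arrays, mitochondrially encoded subunits and regulators are lower in PD-1hi and PD-1int than in memory and naive arrays, and mitosis genes are highest in PD-1hi arrays. The axes differ between panels.

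Other genes of the pathway are given from lists. Regulators of mitochondrial biogenesis were mostly lower in PD-1hi than in naive cells: 9 of 16 fell and 2 rose, with a median of -0.39. Polg2, a subunit of the mitochondrial DNA polymerase, differed by -1.40 ± 0.12 (SE, adjusted p = 4.96e-08). Ppargc1b and Pprc1, coactivators of the PGC-1 family, differed by -1.18 ± 0.12 (SE, adjusted p = 5.22e-07) and -1.15 ± 0.14 (SE, adjusted p = 2.8e-06). Polg2 was also lower in PD-1hi than in PD-1int cells at -0.48 ± 0.12 (SE, adjusted p = 0.0358). In PD-1int cells 8 of these regulators fell and 1 rose against naive cells, and in memory cells 1 fell. Of 7 carriers that feed or pass electrons beside the complexes, 4 rose and 2 fell in PD-1hi against naive cells. These were 57.1% and 28.6% of that short list, beside 13.4% and 13.7% of all genes. Etfb, a subunit of the electron transfer flavoprotein, was 2.02 ± 0.095 (SE, adjusted p = 1.48e-11) higher, Gpd2, the mitochondrial glycerol phosphate dehydrogenase, 1.11 ± 0.13 (SE, adjusted p = 1.99e-06) higher, and Cycs, cytochrome c itself, 0.53 ± 0.082 (SE, adjusted p = 5.42e-05) higher.

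Of 33 assembly factors outside the symbol rule 6 were higher and 6 lower in PD-1hi against naive cells (18.2% each, beside 13.4% and 13.7% of all genes and 22.1% each without the 40% dimmest genes). Cox17, the copper chaperone of complex IV, was 0.88 ± 0.079 (SE, adjusted p = 7.47e-08) higher, and Uqcc2, a factor of complex III, 0.63 ± 0.085 (SE, adjusted p = 1.12e-05) higher. Lyrm7, which helps insert the Rieske protein into complex III, differed by -1.80 ± 0.27 (SE, adjusted p = 3.51e-05). In the tricarboxylic acid cycle 4 of 13 genes rose and 3 fell in PD-1hi against naive cells (30.8% and 23.1%). The share that fell was near the 22.1% found without the 40% dimmest genes. Idh2, the mitochondrial NADP-dependent isocitrate dehydrogenase, differed by -2.38 ± 0.079 (SE, adjusted p = 1.59e-13) between PD-1hi and naive cells, and between PD-1hi and PD-1int cells by -0.29 ± 0.079 (SE, adjusted p = 0.048). Idh3a, of the NAD-dependent enzyme, was 0.88 ± 0.15 (SE, adjusted p = 0.00019) higher, and Suclg2, of succinyl-CoA synthetase, differed by -0.68 ± 0.14 (SE, adjusted p = 0.000688). Among 7 antioxidant and uncoupling genes, Atpif1, the inhibitor of ATP synthase, was 0.99 ± 0.082 (SE, adjusted p = 2.73e-08) higher and Gpx1, glutathione peroxidase, differed by -0.41 ± 0.092 (SE, adjusted p = 0.00205).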

How the data were processed

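RNA of the 16 sorted samples was extracted by RNeasy Micro kit, labelled by the WT Pico procedure and measured on Affymetrix Mouse Gene 2.0 ST arrays, per the labels' protocols. The deposited values are log2 expression per probe set, made with Affymetrix Power Tools per the submitters' processing notes. Neither its version nor the way probes were summarised is given in the sources used here. The log2 base was read from the range, 2.347 to 14.125, and array medians lay between 6.394 and 6.489. Of 41345 probe sets, the 23521 with a single symbol were used, the brightest per gene. The files carry no detection calls, so a dim gene may be absent. The number of arrays limits the precision.

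All 16 arrays were fitted with limma 3.58.1 (R 4.3.3), lmFit with 1 coefficient for each subset, unblocked, then eBayes. Adjusted p is Benjamini-Hochberg over all 22180 genes of a comparison, two-sided, with a threshold of 0.05. The pipeline was tested on simulated data. The titles carry the same 4 numbers in every subset, and the labels do not say whether a number marks an animal or a batch. Same-numbered arrays were not treated as pairs, since only 2 of 24 pairs correlated in their deviations from the subset means at over 0.1 (r from -0.048 to 0.15). Alternatives are given in the closing section.

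The members and all lists (mitochondrially encoded subunits, carriers, other assembly factors, tricarboxylic acid cycle, biogenesis regulators, antioxidant genes, mitochondrial ribosome, mitosis, cell markers) were chosen with earlier results of these data known. Members are named if they had 1 of the 3 largest rises or falls of their complex past the threshold in a comparison, or belong to a fixed list of core subunits, isoforms and assembly factors. Of the other lists, the 3 genes with the smallest adjusted p in each comparison of PD-1hi cells with naive or PD-1int cells are named, where they passed. Some further genes (Ndufs3, Ndufs7, Ndufs8, Cox6b2, Cox7b, Atp5d, Atp5l, Atp5pb, Cd8a, Cd79a and Ms4a1) were chosen after their values were seen.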

Additional observations from a re-analysis of the deposited data

Results flagged for a closer look

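Of 268 groups of 4 values, for each named member and for each complex mean, 20 held an array whose gap to the nearest of the others exceeded Dixon's limit as a share of the range. Chance flags about 1 in 20 groups. In PD-1hi cells replicate 4 stood high for Atp5e (log2 value 11.36, others 11.002 to 11.05), Atp5d (9.03, others 8.92 to 8.94) and Ndufab1 (7.91, others 7.54 to 7.56). In PD-1int cells replicate 1 stood low for Atp5g1 (6.70, others 6.87 to 6.89) and Ndufaf3 (7.97, others 8.10 to 8.13). Replicate 2 stood high for Ndufaf2 (7.62, others 7.31 to 7.36), and replicate 3 for Atp5g3 (9.54, others 9.52). Replicate 4 of the PD-1int arrays stood low for Ndufa10 (10.87, others 11.004 to 11.02) and Uqcrq (9.89, others 9.98 to 9.99).

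In memory cells replicate 2 stood high for Cox7a2l (9.84, others 9.77 to 9.78) and Ndufa1 (12.54, others 12.42 to 12.44). Replicate 3 stood high for Ndufaf1 (8.17, others 8.07 to 8.09), replicate 4 for Ndufb8 (9.04, others 8.86 to 8.88) and replicate 1 for Uqcrc2 (10.82, others 10.69 to 10.70). In naive cells replicate 1 stood high for Ndufs1 (9.15, others 8.74 to 8.78) and Sdhaf3 (7.05, others 6.43 to 6.47) and low for Ndufa11 (8.83, others 9.21 to 9.26). Naive replicate 2 stood low for Ndufa4l2 (5.005, others 5.38 to 5.44), replicate 3 stood low for Atp5mpl (10.52, others 10.78 to 10.83), and replicate 4 stood high for the centred mean of complex III (-0.074, others -0.22 to -0.20).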

How the results depend on the processing

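Against naive cells the counts of members that rose stayed within 1.5 times of those reported under each planned setting that left out no array of the comparison, and leaving out 1 array gave 29 to 37 higher and 6 to 9 lower in PD-1hi cells, 26 to 36 higher and 2 (without naive replicate 1) to 6 lower in PD-1int cells, and 19 (without naive replicate 3) to 33 higher and 0 to 1 (without naive replicate 2) lower in memory cells. A fit of only the 8 arrays compared called 4 lower in PD-1hi cells, and a fit without memory replicates 1 and 4 called 13 higher in memory cells. For PD-1hi against PD-1int cells, eBayes with trend and robust settings called 1 higher; 0 were lower with the replicate block, with only 8 arrays, with quantile normalization, with median centring and with array weights, and 0 to 1 with 1 array left out. For PD-1int against memory cells, 2 were higher with only 8 arrays, 5 without the 40% dimmest genes, 5 with trend and robust settings, 3 with array weights, 0 with quantile normalization, median centring or without memory replicates 1 and 4, and 0 to 3 with 1 array left out; 3 were lower without those memory arrays and 4 to 6 with 1 array left out. For PD-1hi against memory cells, 15 were higher without the dimmest genes, 14 with trend and robust settings, 5 without memory replicates 1 and 4 and 7 to 11 with 1 array left out; 7 were lower without those memory arrays and 8 (without memory replicate 2) to 12 with 1 array left out. The mean level of complex I in PD-1int arrays, 0.016, was -0.0001 with quantile normalization and 0.024 with median centring. Of 120 calls of named members, none reversed; the planned settings that left out no array of the comparison kept 888 of 960 values past the threshold, a fit of only the 8 arrays compared (94 of 120) included, and leaving out 1 array kept 785 of 960. The replicate block kept 108 of 120 named calls, and other counts of members moved by less than 1.5 times with it. Fewer arrays give wider errors, and the cause of the other changes was not tested.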

Other observations

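The mitochondrial ribosome, which translates the subunits encoded in mitochondrial DNA, was measured by 71 genes. In PD-1hi against naive cells 16 rose and 12 fell, with a median difference of -0.010, beside 13.4% and 13.7% of all genes. Mrpl24 and Mrps18b differed by -0.85 and -0.92 and Mrpl4 by 1.03 in that comparison, and Mrpl24 by -0.37 between PD-1hi and PD-1int cells. In PD-1int against naive cells 15 rose and 9 fell (21.1% and 12.7%), beside 11.9% and 10.8% of all genes. Without the dimmest genes those shares were 20.3% and 17.3%, near or above those of the list. In memory against naive cells 21 rose (29.6%), with a median of 0.22 against -0.016 over all genes. Of all genes 6.70% rose there, and 12.4% without the dimmest. Between PD-1hi and memory cells 2 were higher and 24 lower (2.82% and 33.8%). All genes gave 10.8% and 11.1%, and those without the dimmest 17.9% and 18.8%. The centred mean was -0.10 to -0.038 in PD-1hi arrays, -0.040 to -0.0001 in PD-1int arrays, 0.078 to 0.22 in memory arrays and -0.15 to 0.049 in naive arrays, so memory arrays were highest without overlap.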
